A study of Homo sapiens with 6 samples.

Results

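The genes described here encode proteins of the BCL2 family, which decides at the outer mitochondrial membrane whether a stressed cell dies by apoptosis. Of the 10 genes listed for the family, 9 had a row in the count table of 11957 rows, found by an exact match of the gene symbol. They were the pro-survival genes BCL2L1, BCL2L2 and MCL1, the pore-forming genes BAX and BAK1, and the BH3-only genes BID, BAD, BBC3 and BCL2L11. The remaining listed gene, PMAIP1, had no row and was not analysed here. RNA was measured by poly(A)-enriched, strand-specific sequencing in cells of the established ovarian cancer line OVCA433, in 3 libraries labelled U2AF2 SI and 3 labelled U2AF2 SINC. The question posed is what lack of U2AF2 does to gene expression in these cells, but the labels expand neither SI nor SINC, and they name no reagent, dose, time or clone. U2AF2 encodes the large subunit of the factor that marks the end of an intron by binding its polypyrimidine tract. Every difference below is the U2AF2 SI group minus the U2AF2 SINC group, as labelled.

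BAX and BAK1 are the effectors of the pathway: once activated they assemble into pores that release cytochrome c, which leads to caspase activation. BCL2L1 (BCL-XL), BCL2L2 (BCL-W) and MCL1 hold them in check, and the BH3-only proteins either neutralise these guardians or activate the effectors directly. Several of the transcripts are spliced into forms of different action. In BCL2L1 an upstream donor site within a coding exon gives the short form BCL-XS, which promotes death, and in MCL1 skipping of a coding exon gives a short form that does the same. BCL2L11 (BIM) is spliced into forms of different potency, of which BIM-EL is the long one and BIM-L a shorter one.

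The counts were given per gene, so these forms were summed and cannot be told apart in the values below. The sequences that would separate them are shown for that reason. Each run below covers 20 bases on either side of a splice junction in the coding sequence, from GENCODE release 29 (GRCh38), 5′ to 3′ on the gene's strand. Capitals mark the bases downstream of the junction.
BCL2L1-201, coding for BCL-XL, chromosome 20, minus strand, joining base 31721655 to base 31666086: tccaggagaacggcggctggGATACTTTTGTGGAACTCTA
BCL2L1-202, coding for BCL-XS, chromosome 20, minus strand, joining base 31721844 to base 31666086: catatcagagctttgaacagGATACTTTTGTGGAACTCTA
MCL1-202, the long form, chromosome 1, minus strand, joining base 150578843 to base 150578491: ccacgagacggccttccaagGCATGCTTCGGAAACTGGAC
MCL1-201, the short form, chromosome 1, minus strand, joining base 150578843 to base 150577491: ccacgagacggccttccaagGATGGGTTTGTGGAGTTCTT
BCL2L11-206, the BIM-EL form, chromosome 2, plus strand, unspliced between bases 111123869 and 111123870: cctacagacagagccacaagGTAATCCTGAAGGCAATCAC
BCL2L11-201, the BIM-L form, chromosome 2, plus strand, joining base 111123869 to base 111124050: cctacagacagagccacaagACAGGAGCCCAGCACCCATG
The BCL2L1 pair shares its downstream exon and differs upstream, while the other pairs share their upstream bases and differ downstream. The coding sequence of BCL2L1-202 lacked 189 bases of BCL2L1-201, that of BCL2L11-201 lacked 180 bases of BCL2L11-206, and the exon that MCL1-201 skips held 248 bases. GENCODE release 29 lists 17 protein-coding transcripts and 8 subject to nonsense-mediated decay for BCL2L11, and 9 protein-coding transcripts for BCL2L1.

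The 6 libraries held 43333966 to 48976810 counts each. U2AF2 itself was at 285, 346 and 373 CPM (counts scaled by TMM-adjusted library size) in replicates 1, 2 and 3 labelled U2AF2 SI (SI-labelled below), against 252, 284 and 206 CPM in those labelled U2AF2 SINC (SINC-labelled below). The gene the groups are named for was therefore lower under the SINC label, but narrowly. SI-labelled replicate 1, at 285 CPM, lay just above SINC-labelled replicate 2, at 284 CPM. Of all rows, 7.36% stood apart in that direction. The sample descriptions also assign the count columns that begin with N to the SI label and those that begin with S to the SINC label. Whether labels or columns were exchanged cannot be told from the files, and an exchange would reverse the sign of every difference below. edgeR gave U2AF2 a log2 fold change of 0.44 ± 0.19 (SE) with a Benjamini-Hochberg adjusted p of 0.653, and the exact permutation p was 0.1, the smallest that 3 libraries against 3 allow. Of 13 markers of ovarian epithelial carcinoma, KRT8, KRT18 and MUC1 had a row, and their summed level was 242 to 410 CPM in SI-labelled libraries and 312 to 455 CPM in SINC-labelled libraries. That sum came mostly from KRT18. The other 10 had no row: PAX8, WT1, EPCAM, KRT7, KRT19, MUC16, CDH1, CLDN3, CLDN4 and MSLN. Most of the list was thus absent from a table whose scarcest row averaged 31 counts per library. The markers therefore bear out the labelled cell type only in small part, and why these rows are missing was not tested. Of the fibroblast markers 3 of 8 had a row (57.1 to 76.7 CPM in sum in SI-labelled libraries, against 39.2 to 62.3 CPM in SINC-labelled ones, mostly COL3A1), of the leukocyte markers CD68 alone of 8 (49.3 to 53.5 CPM in SI-labelled libraries, against 48.2 to 56.3 CPM in SINC-labelled ones), and of the endothelial markers none of 6. Their part in the results below was not tested. No label says that the libraries of a group were grown as separate cultures, so the p-values rest on a spread between libraries that could be technical.

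No difference in the 9 BCL2 family genes was larger than the spread between libraries in edgeR's quasi-likelihood test: 0 passed at an adjusted p of 0.05, and 0 had an unadjusted p under 0.05. Over all rows 0.00836% passed the adjusted threshold (1 of 11957) and 7.37% had an unadjusted p under 0.05. With limma-voom 0 members passed, and 0 had an unadjusted p under 0.05. DESeq2 also gave 0 of the 9 an unadjusted p under 0.05, against 8.48% of all rows, but it set no adjusted p for any of them. In 0 of the 9 genes did the groups stand apart without overlap in CPM, where 13.0% of all rows did. The members' log2 fold changes ran from -0.43 for BAD to 0.57 for BCL2L11, with 3 above 0 and 6 below (4 of these 6 lay above 0 when scaled by library size alone) and a median of -0.08. Over all rows 54.3% lay above 0 and 45.7% below, with a median of 0.04. For 7 members the 95% interval lay inside a 2-fold difference in either direction, that is within -1 to 1 on the log2 scale. Those of BAD and BCL2L11 reached past it.

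**Figure D1:**
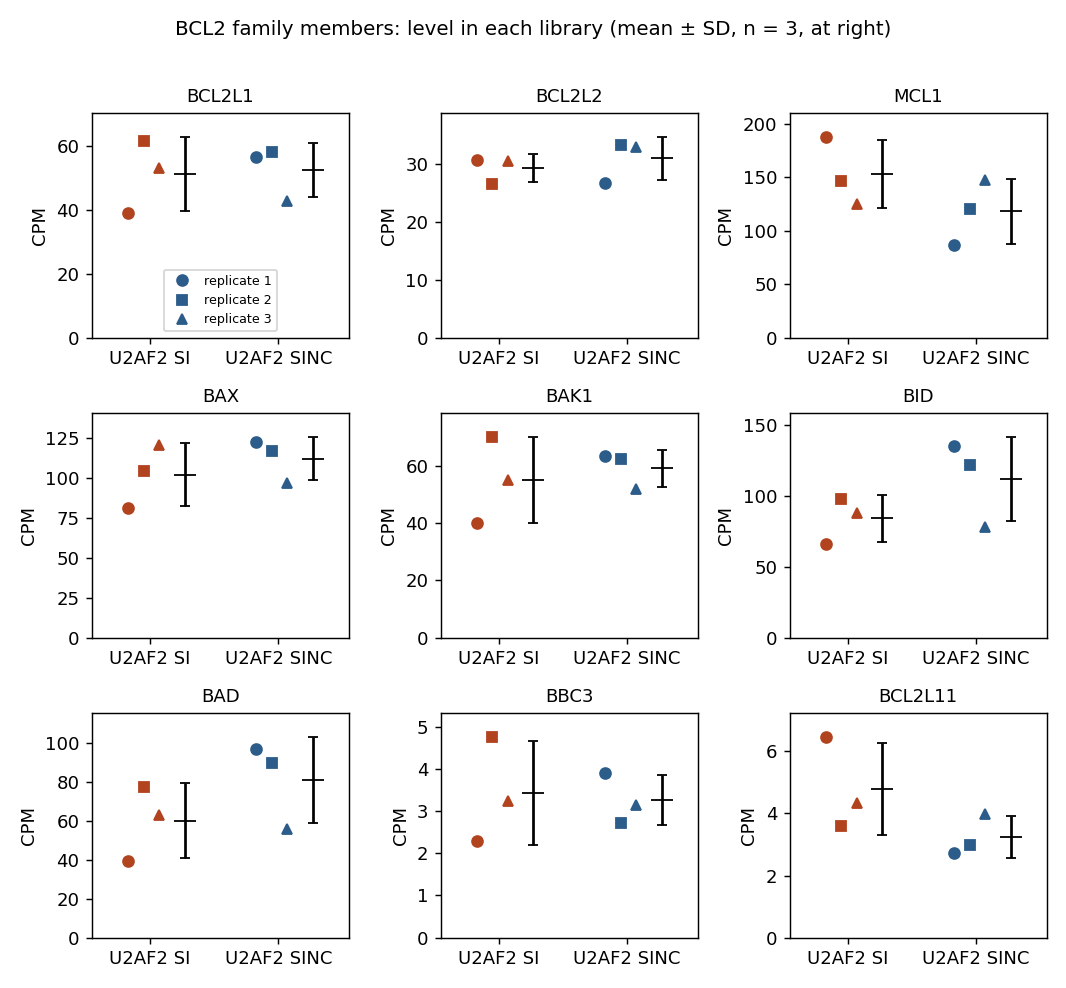
Level of each BCL2 family gene in CPM (vertical axes, each from 0) in the 3 libraries labelled U2AF2 SI (left, red) and the 3 labelled U2AF2 SINC (right, blue), with symbols for the replicate and the mean ± SD (n = 3) beside them. In all 9 genes the groups overlap, and in 6 of them the lowest point is replicate 1 labelled U2AF2 SI.

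**Figure D2:**
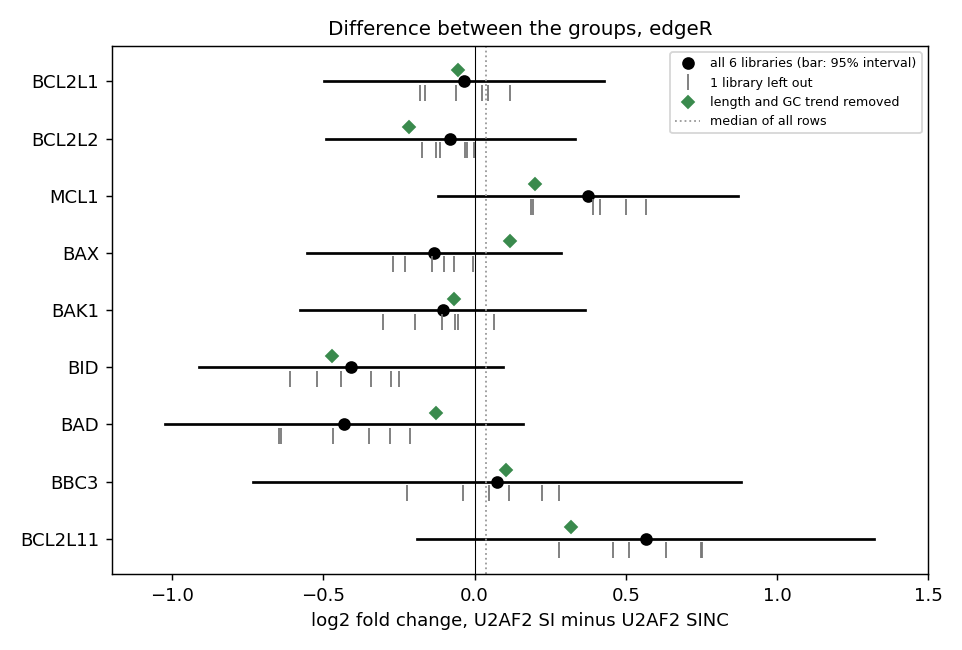
Log2 fold change of each gene, U2AF2 SI minus U2AF2 SINC (horizontal axis), from edgeR over 6 libraries with its 95% interval (black), with each library left out in turn (grey ticks) and after correction for transcript length and GC content (green). Each of the 9 intervals holds 0, and the green point of BAX lies on the other side of 0 from its black point.

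Among the pro-survival genes, MCL1, whose protein turns over quickly and must be made continuously, had the largest difference without a correction for transcript length and GC content, and BCL2L2 had it with one. MCL1 stood at 188, 147 and 125 CPM in replicates 1, 2 and 3 labelled U2AF2 SI, against 86.4, 121 and 148 CPM in SINC-labelled libraries. The ranges overlapped: replicate 3 labelled U2AF2 SINC lay above replicates 2 and 3 labelled U2AF2 SI. Means were 153 ± 31.6 CPM in SI-labelled libraries and 118 ± 30.6 CPM in SINC-labelled ones (SD, n = 3 each), a log2 fold change of 0.37 ± 0.23 (SE; edgeR adjusted p = 0.71) with a 95% interval of -0.12 to 0.87. BCL2L1, the guardian that many solid tumours express, was nearly even between the groups. Its levels were 38.9, 61.7 and 53.0 CPM in SI-labelled libraries, against 56.6, 58.0 and 42.7 CPM in SINC-labelled libraries. Both the highest and the lowest of the 6 values lay in the group labelled U2AF2 SI. The log2 fold change was -0.04 ± 0.21 (SE; edgeR adjusted p = 0.975), with a 95% interval of -0.50 to 0.43.

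BCL2L2 varied least of the 9 genes, over 0.33 on the log2 scale from its lowest to its highest library. It was at 30.7, 26.4 and 30.5 CPM in SI-labelled libraries, against 26.7, 33.2 and 32.8 CPM in SINC-labelled libraries (log2 fold change -0.08 ± 0.19 SE, edgeR adjusted p = 0.92). Corrected for length and GC content, the log2 fold change was -0.22 ± 0.14 (SE; edgeR adjusted p = 0.708) for BCL2L2 and 0.20 for MCL1. A separate row, BCL2L2-PABPN1, counts the read-through transcript of BCL2L2 and its neighbour PABPN1, which shares exons with both, so how reads were divided among the 3 rows is uncertain. That row held 38.1, 32.2 and 18.7 CPM in SI-labelled libraries, against 47.6, 66.5 and 19.1 CPM in SINC-labelled libraries. It was lowest in replicate 3 of either group. With the BCL2L2 and BCL2L2-PABPN1 rows summed, the log2 fold change was -0.36 ± 0.24 (SE; edgeR adjusted p = 0.726).

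Both pore-forming genes had values that overlapped widely between the groups. BAX, which moves from the cytosol to mitochondria when activated, was at 81.1, 105 and 121 CPM in SI-labelled libraries, against 122, 117 and 96.8 CPM in SINC-labelled libraries. Its log2 fold change was -0.13 ± 0.19 (SE; edgeR adjusted p = 0.867). BAK1, whose protein resides in the mitochondrial outer membrane, was at 40.0, 69.9 and 55.2 CPM in SI-labelled libraries, against 63.3, 62.6 and 51.8 CPM in SINC-labelled libraries. The libraries labelled U2AF2 SI held both its lowest and its highest value, and its log2 fold change was -0.11 ± 0.22 (SE; edgeR adjusted p = 0.907). The ratio of BAX to BCL2L1 counts stayed narrow, at 2.09, 1.70 and 2.27 in SI-labelled libraries and 2.16, 2.02 and 2.26 in SINC-labelled libraries.

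Of the BH3-only genes, BID and BAD had lower means and BCL2L11 a higher mean in SI-labelled libraries. BBC3 was nearly even, at means of 3.43 CPM in SI-labelled libraries and 3.25 CPM in SINC-labelled ones. The groups overlapped in all of these genes. BID, which is cut by caspase-8 and carries death receptor signals to mitochondria, stood at 66.1, 97.9 and 87.9 CPM in SI-labelled libraries, against 135, 121 and 78.2 CPM in SINC-labelled libraries. BAD, which binds BCL2L1 and is kept inactive by survival kinases, stood at 39.3, 77.5 and 63.2 CPM in SI-labelled libraries, against 97.0, 89.8 and 55.9 CPM in SINC-labelled libraries. In both genes replicates 1 and 2 labelled U2AF2 SINC were above every other library, and replicate 3 of that group lay below replicates 2 and 3 labelled U2AF2 SI. Log2 fold changes were -0.41 ± 0.23 (SE; edgeR adjusted p = 0.697) for BID and -0.43 ± 0.27 (SE; edgeR adjusted p = 0.716) for BAD.

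BCL2L11, whose product BIM binds all the pro-survival proteins, had few counts. It was counted 332, 178 and 185 times in SI-labelled libraries (6.46, 3.59 and 4.34 CPM), against 117, 121 and 183 times in SINC-labelled libraries (2.73, 2.99 and 4.00 CPM). Replicate 1 labelled U2AF2 SI stood above the other 5 libraries, and the groups overlapped through replicate 2 of that group. The log2 fold change was 0.57 ± 0.34 (SE; edgeR adjusted p = 0.712) with a 95% interval of -0.19 to 1.32. BBC3 (PUMA), a p53 target, also had few counts, at 118, 235 and 138 counts in SI-labelled libraries (2.29, 4.75 and 3.24 CPM), against 167, 110 and 144 counts in SINC-labelled libraries (3.90, 2.72 and 3.15 CPM). Its log2 fold change was 0.07 ± 0.37 (SE; edgeR adjusted p = 0.967), with an interval of -0.73 to 0.88.

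Levels were set between genes per kilobase of the longest protein-coding transcript in GENCODE release 29. On that scale (CPM per kb, mean over 6 libraries) BAX was first at 78.8, followed by BAD at 60.9, BID at 39.2, MCL1 at 34.5, BAK1 at 25.8 and BCL2L1 at 19.9. BCL2L2 at 8.33, BBC3 at 1.82 and BCL2L11 at 0.768 came last. Ranges over the libraries overlapped between neighbours from BAX down to BCL2L1, whereas BCL2L1, BCL2L2, BBC3 and BCL2L11 followed one another without overlap. Within libraries, BAX was above BAD, BAD above BID and BAK1 above BCL2L1 in all 6, and MCL1 was above BAK1 in 5. The order of BID and MCL1 differed between the groups' means: MCL1 averaged 39.0 ± 8.04 and BID 33.7 ± 6.52 CPM per kb in SI-labelled libraries, while MCL1 averaged 30.1 ± 7.79 and BID 44.7 ± 11.9 CPM per kb in SINC-labelled libraries (SD, n = 3 each). BID was above MCL1 in 4 of the 6 libraries, all but replicate 1 labelled U2AF2 SI and replicate 3 labelled U2AF2 SINC. The order of the means in SI-labelled libraries therefore rested on replicate 1. Lengths of other transcripts would give other values, and bulk values cannot tell fewer cells of a kind from less RNA per cell.

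The sum over the pro-survival genes was 257, 235 and 209 CPM in SI-labelled libraries, against 170, 212 and 223 CPM in SINC-labelled libraries. Summed BH3-only genes were at 114, 184 and 159 CPM in SI-labelled libraries, against 239, 217 and 141 CPM in SINC-labelled libraries. Divided by all pro-death genes together (pore-forming and BH3-only), the pro-survival sum gave 1.09, 0.656 and 0.625 in SI-labelled libraries, against 0.400, 0.535 and 0.770 in SINC-labelled libraries. Replicate 1 labelled U2AF2 SI was the highest and replicate 1 labelled U2AF2 SINC the lowest, and the other 4 libraries were interleaved. The ratio averaged 0.791 ± 0.262 in SI-labelled libraries and 0.568 ± 0.187 in SINC-labelled ones (SD, n = 3 each), and per kilobase of transcript 0.371 ± 0.117 in SI-labelled libraries and 0.270 ± 0.081 in SINC-labelled ones. These are ratios of RNA, summed over genes of unlike length, and are given as a description.

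**Figure D3:**
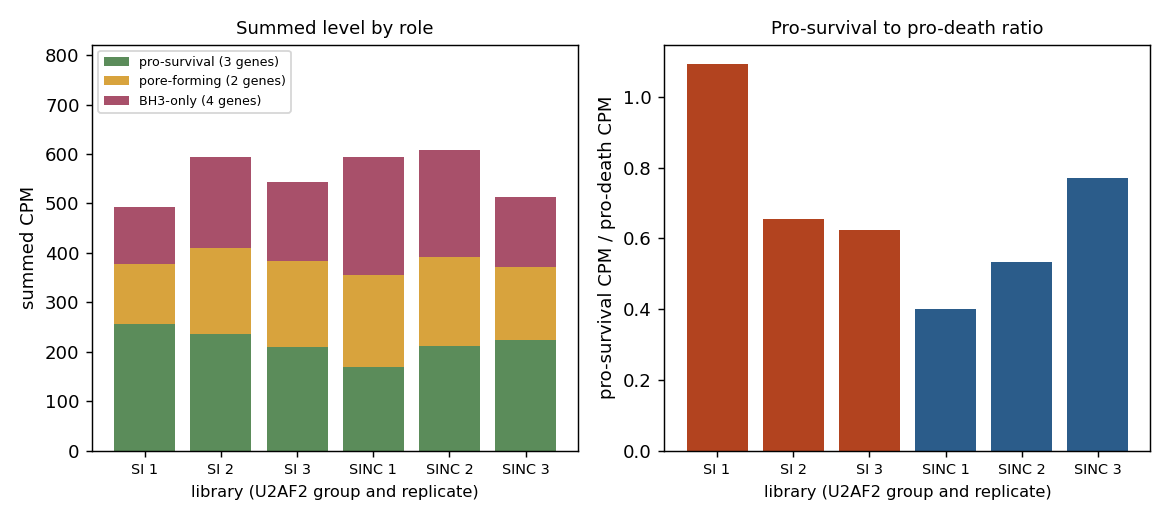
Left, summed CPM of the 3 pro-survival, 2 pore-forming and 4 BH3-only genes in each library; right, the pro-survival sum divided by the pro-death sum (no unit). Libraries labelled U2AF2 SI stand left of those labelled U2AF2 SINC; the ratio runs from 0.400 to 1.09 and the groups overlap.

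Several of the genes shared a profile over the libraries that cut across the groups. The 6 genes with a lowest value in replicate 1 labelled U2AF2 SI were BCL2L1, BAX, BAK1, BID, BAD and BBC3, whereas MCL1 and BCL2L11 had their highest value there and their lowest in replicate 1 labelled U2AF2 SINC. Likeness between profiles was measured as the root mean square difference of log2 CPM deviations from each gene's own mean over 6 libraries. BCL2L1 and BAK1 were the closest pair at 0.08, followed by BID and BAD at 0.13, while BAX was nearest to BCL2L1 at 0.14 and BBC3 to BAK1 at 0.20. MCL1 and BCL2L11 were nearest to each other at 0.21, and BCL2L2 to BAX at 0.27. The widest distance was between BAD and BCL2L11, at 0.84.

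The same division went along with transcript length, with BCL2L2 on neither side. BCL2L2, at 3605 nt, deviated by 0.04 in replicate 1 labelled U2AF2 SI. Whether length or GC content caused the profiles was not tested. The 6 genes lowest in replicate 1 labelled U2AF2 SI had the 6 shortest transcripts, from 1157 nt for BAD to 2610 nt for BCL2L1, and a GC content of 49.7% for BID to 69.7% for BBC3. MCL1 (3932 nt, 45.1% GC) and BCL2L11 (5231 nt, 45.7% GC) had the longest transcripts and the lowest GC content of the 9. Over the whole table, the 2832 rows with the shortest transcripts had a median deviation of -0.28 in replicate 1 labelled U2AF2 SI, against 0.20 in replicates 1 and 2 labelled U2AF2 SINC. The 2832 rows with the longest transcripts had 0.35 in replicate 1 labelled U2AF2 SI, against -0.09 and -0.27 in replicates 1 and 2 labelled U2AF2 SINC. After a smooth dependence on length and GC content was taken out of each library, log2 fold changes were 0.20 for MCL1, 0.32 for BCL2L11, -0.13 for BAD and -0.07 for BAK1, each nearer to 0 than before. BCL2L2, at -0.22, lay farther from 0, and so did BCL2L1 at -0.05, BBC3 at 0.10 and BID. BID was at -0.47 ± 0.22 (SE; unadjusted p = 0.0566, edgeR adjusted p = 0.655), and BAX was at 0.12 ± 0.12 (SE; edgeR adjusted p = 0.82).

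**Figure D4:**
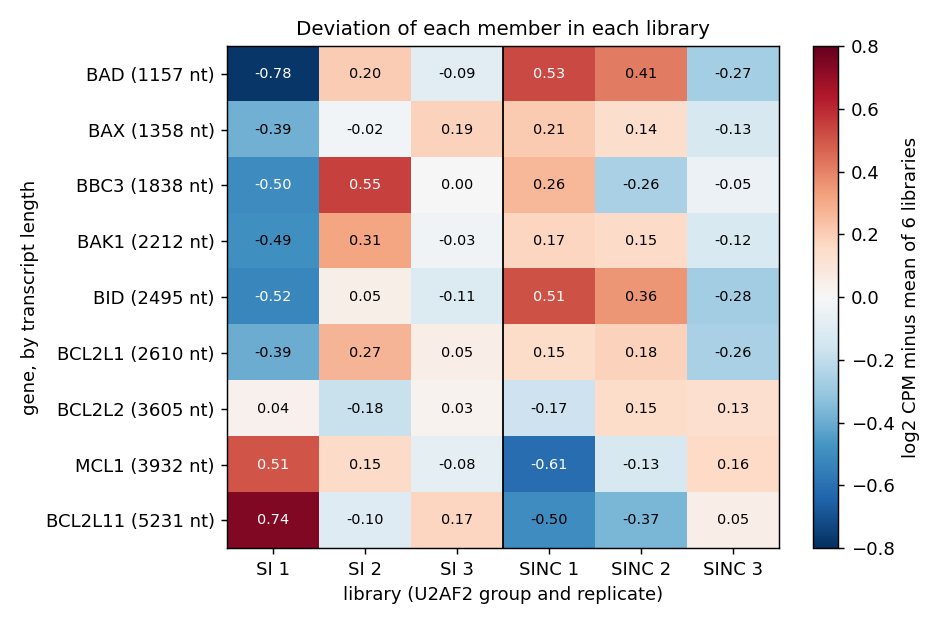
Deviation of log2 CPM from the mean of the 6 libraries (colour and printed value) for each gene, from the shortest transcript at the top to the longest at the bottom, with libraries labelled U2AF2 SI left of the line and those labelled U2AF2 SINC right of it. The first column runs from -0.78 for BAD to 0.74 for BCL2L11.

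Estimates for several genes depended on which libraries entered. Without replicate 3 labelled U2AF2 SINC, log2 fold changes were 0.57 for MCL1, -0.61 for BID and -0.64 for BAD, with unadjusted p of 0.0328, 0.0111 and 0.0258 (edgeR adjusted p = 0.318, 0.259 and 0.3, and from 0.318 to 0.999, 0.259 to 0.999 and 0.3 to 0.999 over the alternatives that gave one). In that fit 14.4% of all rows had an unadjusted p under 0.05. Those 3 genes and BCL2L11 then no longer overlapped between the groups, as held for 35.7% of all rows in the same libraries. Leaving out replicate 1 labelled U2AF2 SI gave 0.19 for MCL1, -0.28 for BID, -0.21 for BAD and 0.28 for BCL2L11. Omission of SINC-labelled replicate 1 gave 0.19 for MCL1, -0.25 for BID, -0.28 for BAD and 0.46 for BCL2L11. BAD also had an unadjusted p under 0.05 without replicate 2 labelled U2AF2 SI, at -0.65, as did 6.85% of all rows there. BCL2L1 lay between -0.18 and 0.12 over the 6 omissions of a library, and BBC3 between -0.22 and 0.28. Scaling by library size alone, which put the median of all rows at 0.22 in place of 0.04, gave 0.15 for BCL2L1, 0.10 for BCL2L2, 0.046 for BAX and 0.078 for BAK1, so that the direction of these 4 genes reversed, yet each lay below that median.

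Beyond the 9 genes, 14 of 18 further BCL2 family and related genes had a row. None of them passed or had an unadjusted p under 0.05, where 7.37% of all rows had such an unadjusted p. Of the 14, 4 lay above and 10 below 0, with a median log2 fold change of -0.10. The founding member BCL2 was at 3.77, 2.63 and 3.12 CPM in SI-labelled libraries, against 2.38, 1.46 and 2.21 CPM in SINC-labelled libraries (log2 fold change 0.65 ± 0.37 SE, edgeR adjusted p = 0.697). TMBIM6, which encodes BAX inhibitor 1, a protein of the endoplasmic reticulum, was at 359 ± 21.0 CPM in SI-labelled libraries and 286 ± 14.7 CPM in SINC-labelled libraries (SD, n = 3 each; edgeR adjusted p = 0.687). Those were the 2 of the 14 whose groups did not overlap, in each case with SI-labelled libraries higher, as held for 7.36% of all rows. The third by p was BCL2L12, a BCL2-like protein, at a log2 fold change of -0.35 ± 0.22 (SE).

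Genes listed for the turnover or binding of MCL1 and the BH3-only proteins had 14 of 17 members above 0 and a median of 0.22. Of the 17, 2 were higher and 1 lower at an unadjusted p under 0.05 in edgeR, and 0 passed the adjusted threshold. Of all rows 54.3% lay above 0, with a median of 0.04, and 3.15% were higher and 4.22% lower at that unadjusted p. The median log2 fold change was -0.20 over the 2832 rows with the shortest transcripts and 0.19 over the 2832 with the longest. The part of transcript length in the values of this list was not tested. HUWE1, a ubiquitin ligase that targets MCL1 for degradation, was at 133, 90.3 and 120 CPM in SI-labelled libraries, against 76.5, 61.7 and 99.9 CPM in SINC-labelled libraries (log2 fold change 0.53 ± 0.22 SE). DYNLL1, the dynein light chain that binds BIM, was at 436, 443 and 512 CPM in SI-labelled libraries, against 747, 771 and 483 CPM in SINC-labelled libraries (log2 fold change -0.52 ± 0.21 SE). Both genes had an edgeR adjusted p of 0.653.

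Among 15 transcription factors and regulators upstream of BH3-only genes, 7 lay above and 8 below 0 (median -0.07), and 1 had an unadjusted p under 0.05, against 7.37% of all rows. That gene was DDIT3, which encodes CHOP, a stress-induced factor that raises BCL2L11 transcription. It was at 33.4, 31.6 and 37.6 CPM in SI-labelled libraries, against 56.3, 63.7 and 60.1 CPM in SINC-labelled libraries, with no overlap, as in the 5.68% of all rows that stood apart and lower. Its log2 fold change was -0.81 ± 0.17 (SE; unadjusted p = 0.000513, edgeR adjusted p = 0.653). A relation between the levels of DDIT3 and BCL2L11 was not tested. ATF4, the factor that induces DDIT3 under stress, had a log2 fold change of -0.27 ± 0.18 (SE; edgeR adjusted p = 0.72), and MYC had 0.25 ± 0.16 (SE; edgeR adjusted p = 0.716).

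Downstream of the mitochondrial pore, all 22 listed genes for the apoptosome, caspases and their inhibitors were measured, 12 above and 10 below 0 with a median of 0.00. Of the 22, 1 had an unadjusted p under 0.05, against 7.37% of all rows: CASP2, a caspase that can cut BID. It was at 32.0, 29.3 and 38.3 CPM in SI-labelled libraries, against 25.5, 22.6 and 21.2 CPM in SINC-labelled libraries (log2 fold change 0.52 ± 0.19 SE, edgeR adjusted p = 0.653). VDAC3, a channel of the outer membrane, had -0.32 ± 0.18 (SE), and APAF1, the scaffold of the apoptosome, had 0.68 ± 0.44 (SE).

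Of 22 genes listed as regulators of BCL2L1 and MCL1 splicing, 20 had a row, 13 above and 7 below 0, and 0 passed. Their median was 0.18, against 0.04 over all rows. It was -0.20 over the 2832 rows with the shortest transcripts and 0.19 over the 2832 with the longest. The part of transcript length was not tested here either. Of the 20, 1 had an unadjusted p under 0.05, against 7.37% of all rows: PRPF8, a core protein of the spliceosome. It was at 409 ± 21.0 CPM in SI-labelled libraries and 274 ± 38.2 CPM in SINC-labelled libraries (SD, n = 3 each; log2 fold change 0.58 ± 0.18 SE, edgeR adjusted p = 0.653). KHDRBS1 (SAM68), an RNA-binding protein that favours the BCL-XS form, had a log2 fold change of 0.37 ± 0.19 (SE), and SNRPB, an Sm protein, had -0.37 ± 0.20 (SE). Whether the forms of BCL2L1 or MCL1 shifted cannot be read from counts per gene.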

How the data were processed

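RNA of 6 OVCA433 libraries was sequenced after poly(A) enrichment with strand marking by dUTP, per the labels' protocols. Per the submitters' processing notes, CASAVA and StringTie were used; no aligner, build or annotation is given in the sources used here. The authors deposited whole-number counts per gene or locus, used here as raw counts, and columns were tied to libraries by the sample descriptions. The lowest mean of a row was 31 counts per library, so scarcer genes were not analysed here. edgeR 4.0.16 (R 4.3.3) was run over all 11957 rows with TMM factors, filterByExpr, glmQLFit and glmQLFTest, group as the only term, and Benjamini-Hochberg adjustment at 0.05; SE came from the F statistic. DESeq2 1.42.0 and limma 3.58.1 (voom) were alternatives. The biological coefficient of variation was 27.0%. The steps were tested on simulated data that held no trend in length or GC content, so that test says nothing about such a trend. Chi-square values of library pairs within a group were 56.0 to 170 per degree of freedom, and no library repeated another. Transcript lengths (GENCODE release 29) were found for 94.7% of rows. Named genes were the members, U2AF2, and up to 3 genes per list with the smallest p; BCL2L2-PABPN1 was named after its values were seen. Members and lists were chosen with earlier results of these data known. Reads were amplified by PCR and need not be independent molecules. Other settings were no scaling beyond library size, upper-quartile or RLE scaling, every row kept, rows of 5 CPM or more on average, a replicate block, each library omitted in turn, and a loess correction (span 0.3) for length and GC content. One gene that the rule for named genes picked is not reported here, though the counts over its list include it.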

Additional observations from a re-analysis of the deposited data

How the results depend on the processing

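In the alternatives that gave members an adjusted p, 0 passed at 0.05. DESeq2 gave none of the 9 an adjusted p, and BBC3 and BCL2L11 were not tested among rows of 5 CPM or more. MCL1, BID and BAD kept their direction in all 18 alternatives, and BCL2L11 in the 17 that tested it. These alternatives reuse the same libraries and are not independent. Keeping every row repeated the main fit, because the filter had removed none. The counts of members with an unadjusted p under 0.05 ranged from 0 to 3 and of members without overlap from 0 to 4 when 1 library was left out, where 3.21% to 14.4% and 17.8% to 35.7% of all rows did so. The number of rows that passed was 1, but 0 under upper-quartile scaling, with library size alone, with rows of 5 CPM or more and with the length and GC trend removed (alone or with the replicate block), 2 with the replicate block, 61 in DESeq2 (of 1062 rows given an adjusted p), and 0 to 2 with 1 library left out; the cause was not tested. Direction reversed for BCL2L1 (0.15), BCL2L2 (0.10), BAX (0.046) and BAK1 (0.078) with library size alone. It reversed for BAX with the trend removed (0.12, and 0.11 with the block), and in omissions of 1 library, over which BCL2L1 ran from -0.18 to 0.12 (above 0 without SI replicate 1 or SINC replicate 1 or 2), BAK1 from -0.30 to 0.065 (above 0 without SI replicate 1) and BBC3 from -0.22 to 0.28 (below 0 without replicate 2 of either label). Per kilobase, the pro-survival to pro-death ratio was 0.371 in libraries labelled U2AF2 SI and 0.270 in those labelled U2AF2 SINC. Deviations of same-numbered libraries from their group means had correlations of -0.0895, 0.25 and -0.311 for numbers 1, 2 and 3. The highest between any SI-labelled and SINC-labelled library was 0.462, for SI replicate 1 and SINC replicate 3. Deviations from a mean of 3 libraries must balance, so these values can decide little about pairing. The numbers are not read as pairs, and the block changed no member's call. The summed read-through row, the trend with the block and the omission of the most abundant locus were chosen after seeing the data. BBC3 and BCL2L11, at 110 to 332 counts a library, have the widest intervals.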
